A study of Mus musculus with 219 samples.

Results

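Kinesins, cytoplasmic dyneins and tubulins were followed through mouse preimplantation embryos in single-embryo RNA sequencing data. The members were all genes whose symbols start with Kif and a digit or c, with Dync1 or Dync2, with Dynl, or with Tuba, Tubb or Tubg and a digit, which gave 77 of the 32285 genes counted. They comprised 44 kinesin symbols, 5 genes of dynein 1, 2 of dynein 2, 9 dynein light chains, 7 alpha-tubulins, 8 beta-tubulins and 2 gamma-tubulins. Kif16bos, a non-coding gene on the strand opposite Kif16b, and Kif1bp, a kinesin-binding protein, were taken by their symbols, and 42 kinesins remained without them.

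All embryos had the genotype B6C3F1xCD1 and came from B6C3F1 oocytes into which a CD1 sperm head was placed by intracytoplasmic sperm injection (ICSI). The head was deposited opposite the meiotic spindle (contralateral ICSI), beside the spindle (ipsilateral ICSI, named isolateral in the labels) or between these positions (equatorial ICSI). Sister blastomeres were separated at the 2-cell stage (Theiler stage 2) and were either lysed singly or each grown to a blastocyst (Theiler stage 5), which gave a pair of twin blastocysts, and further embryos were left intact and lysed as whole blastocysts. After the filters there were 55 2-cell embryos with both sisters (21 contralateral, 21 ipsilateral and 13 equatorial), 19 twin pairs (6, 7 and 6) and 31 intact blastocysts (11, 8 and 12), and counts of sisters or twins were summed so that the embryo was the replicate. No embryo was unmanipulated, since all were fertilized by injection, and a twin blastocyst grew from 1 blastomere where an intact one grew from both.

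Microtubules are hollow polymers of alpha- and beta-tubulin, nucleated by ring complexes of gamma-tubulin. Most kinesins walk towards the growing plus ends, some depolymerize those ends, and dynein 1 walks to the minus ends with intermediate, light intermediate and light chains that join its heavy chain to cargo. The mouse egg carries a meiotic spindle without centrioles, and the first cleavages run on transcripts and proteins that the oocyte stored, together with those of the newly active embryonic genome.

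Total counts ran from 1255481 to 3976094 in 2-cell embryos, from 1676976 to 3095134 in twin pairs and from 234099 to 1254428 in intact blastocysts, so that the totals of twin pairs and intact blastocysts did not overlap. All blastocysts were on plate 2, while 42 of the 2-cell embryos were on plate 1 and 13 on plate 2. The oocyte and trophectoderm markers followed the labels, and the epiblast markers did not. The 6 oocyte and 2-cell markers summed to a median of 3728 CPM (counts scaled to the library's total) in 2-cell embryos and 46.8 in intact blastocysts, and the 6 trophectoderm markers to 97.99 and 3268. The 5 epiblast markers summed to a median of 181.4 CPM in 2-cell embryos, above that of the intact blastocysts given further on. Between these stages Pou5f1 (log2 difference 1.88) and Sox2 (1.24) were higher in 2-cell embryos and Nanog (-2.54) was lower. Markers of cumulus cells had medians between 6.11 and 20.3 CPM, and those of spermatogenic cells between 0 and 5.50, in the 3 kinds of sample. Single markers differed more. Cyp19a1 (log2 difference 6.39) and Prm2 (6.34) were higher in 2-cell embryos than in intact blastocysts, and Star (-0.01) was not called.

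The upstream sequences shown are those of the 3 members with the smallest adjusted p in each direction between the stages, described further on: Tubg2, Kif17 and Kif5c, which were higher in 2-cell embryos, and Tuba1b, Tubb5 and Dync1h1, which were higher in blastocysts. Each run holds the 250 bases before the RefSeq start of the gene on its own strand in GRCm38.p6, in the order chr11:101155634-101155883 (plus strand), chr4:138262001-138262250 (plus), chr2:49619036-49619285 (plus), chr15:98934391-98934640 (minus), chr17:35838302-35838551 (minus) and chr12:110601145-110601394 (plus). Capitals mark the NF-Y box CCAAT, the CHR motif TTTGAA and the GC box GGGCGG, read on either strand.
Tubg2: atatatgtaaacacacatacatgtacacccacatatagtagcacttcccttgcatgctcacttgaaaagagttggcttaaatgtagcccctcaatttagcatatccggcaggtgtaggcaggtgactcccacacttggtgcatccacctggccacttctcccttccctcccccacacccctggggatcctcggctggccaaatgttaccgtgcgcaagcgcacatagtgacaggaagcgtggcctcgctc
Kif17: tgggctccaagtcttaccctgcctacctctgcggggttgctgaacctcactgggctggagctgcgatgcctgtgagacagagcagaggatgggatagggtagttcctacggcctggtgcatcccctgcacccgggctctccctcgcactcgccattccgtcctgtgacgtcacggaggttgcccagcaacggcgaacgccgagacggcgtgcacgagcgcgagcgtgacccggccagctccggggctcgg
Kif5c: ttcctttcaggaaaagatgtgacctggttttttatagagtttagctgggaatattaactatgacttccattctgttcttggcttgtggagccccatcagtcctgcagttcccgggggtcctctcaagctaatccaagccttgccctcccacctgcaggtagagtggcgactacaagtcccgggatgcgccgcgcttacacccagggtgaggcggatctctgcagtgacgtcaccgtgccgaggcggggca
Tuba1b: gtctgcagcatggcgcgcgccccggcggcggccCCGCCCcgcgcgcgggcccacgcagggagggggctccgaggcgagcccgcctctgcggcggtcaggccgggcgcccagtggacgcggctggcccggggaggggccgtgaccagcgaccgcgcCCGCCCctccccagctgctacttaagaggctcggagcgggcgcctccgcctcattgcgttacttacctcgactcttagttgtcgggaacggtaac
Tubb5: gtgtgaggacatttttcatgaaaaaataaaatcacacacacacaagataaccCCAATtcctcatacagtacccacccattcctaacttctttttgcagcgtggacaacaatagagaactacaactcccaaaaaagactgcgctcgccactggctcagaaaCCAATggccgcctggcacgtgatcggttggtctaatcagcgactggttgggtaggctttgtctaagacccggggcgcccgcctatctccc
Dync1h1: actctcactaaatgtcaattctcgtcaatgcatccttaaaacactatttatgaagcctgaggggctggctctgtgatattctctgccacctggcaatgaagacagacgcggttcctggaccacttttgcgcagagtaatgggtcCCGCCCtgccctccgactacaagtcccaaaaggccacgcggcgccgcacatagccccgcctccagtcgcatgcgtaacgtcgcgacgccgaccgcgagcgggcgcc

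The NF-Y box occurred in the Tubb5 window at 2 places, and the GC box at 2 places in Tuba1b and 1 in Dync1h1, while the windows of Tubg2, Kif17 and Kif5c held none of the 3 motifs. The RefSeq start of Kif17 lay 11816 bases inside the gene as GENCODE draws it, and those of the other 5 genes lay within 175 bases of the GENCODE start. A RefSeq window was found for 59 members (65 windows). On either strand CCAAT occurred in 43.1% of these windows and in 33.8% of the 32851 windows of all genes, the CHR motif TTTGAA in 15.4% and 16%, GGGCGG in 58.5% and 32.7%, and the E2F core TTCCCGC in 6.15% and 3.82%. None of these 4 motifs contains another. The 25 windows of members higher in 2-cell embryos held GGGCGG in 60% and the 13 of members higher in intact blastocysts in 76.9%. The motif was thus in 15 and 10 windows. The windows of these groups came from 21 and 12 genes, and no difference between the groups was tested. The other motifs had lower shares in the second group. In the same order CCAAT occurred in 44% and 38.5%, TTTGAA in 16% and 15.4%, and TTCCCGC in 12% and 0%. The median number of CpG dinucleotides was 16 over all member windows and 6 over all genes. The members without a window are Dynll2, Kif28, Kif1bp, Kifc3, Kif19a, Dynlt1a, Dynlt1b, Tubb6, Kif5a, Kif20a, Tubg1, Dync2li1, Dync1li2, Kif21b, Kif13b, Tubb2b, Kifc2 and Kif5b.

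Of the 77 members, 29 were counted in every one of the 110 blastomeres, 45 had a mean of at least 10 CPM in 2-cell embryos and 49 in intact blastocysts. A further 13 had a mean under 1 CPM in 2-cell embryos, 2 had no count there, and 4 had none in intact blastocysts. The summed level of the kinesin symbols, Kif16bos and Kif1bp included, was 2731, 3204 and 3809 CPM (lowest, median and highest) in 2-cell embryos. It was 682, 1447 and 2108 in intact blastocysts and 1515, 1725 and 1936 in twin pairs. The range of the kinesin sum in 2-cell embryos thus lay above both ranges in blastocysts, while the sum over all members overlapped, with medians of 5882, 5196 and 5186 CPM. For the alpha-tubulins the order was the opposite, with median sums of 209 CPM in 2-cell embryos, 607 in intact blastocysts and 635 in twin pairs, and no overlap of 2-cell embryos (109.1 to 420.9) with either.

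Per length, as TPM, which divides counts by exonic length before scaling, the highest members in 2-cell embryos were the beta-tubulin Tubb3 (464 ± 103.3 TPM, mean ± SD, n = 55), the dynein light chain Dynlrb1 (458 ± 131.2), the gamma-tubulin Tubg2 (446 ± 107.4) and the beta-tubulin Tubb4b (421 ± 111.8). These neighbours in the order did not differ beyond their spread. In intact blastocysts the order was led by Dynlrb1 (690 ± 280.3 TPM, n = 31), Tubb4b (595, with a smaller SD), Tubb5 (593 ± 121.4) and Tuba1b (472 ± 88.5), which likewise overlapped. Tubb3 was at 42.4 ± 38.6 TPM and Tubg2 at 0.317 ± 0.844 TPM there. Among kinesins, Kif5b, the ubiquitous heavy chain of conventional kinesin, was the highest at both stages (173 ± 39.2 and 177 ± 48.1 TPM). The next kinesins in 2-cell embryos were Kif2a (125.8 ± 27.2 TPM), a depolymerase of spindle poles, Kif20b (125.2 ± 28.6), Kif17 (114.8 ± 28.9) and Kif23 (111.6 ± 18.6).

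**Figure D1:**
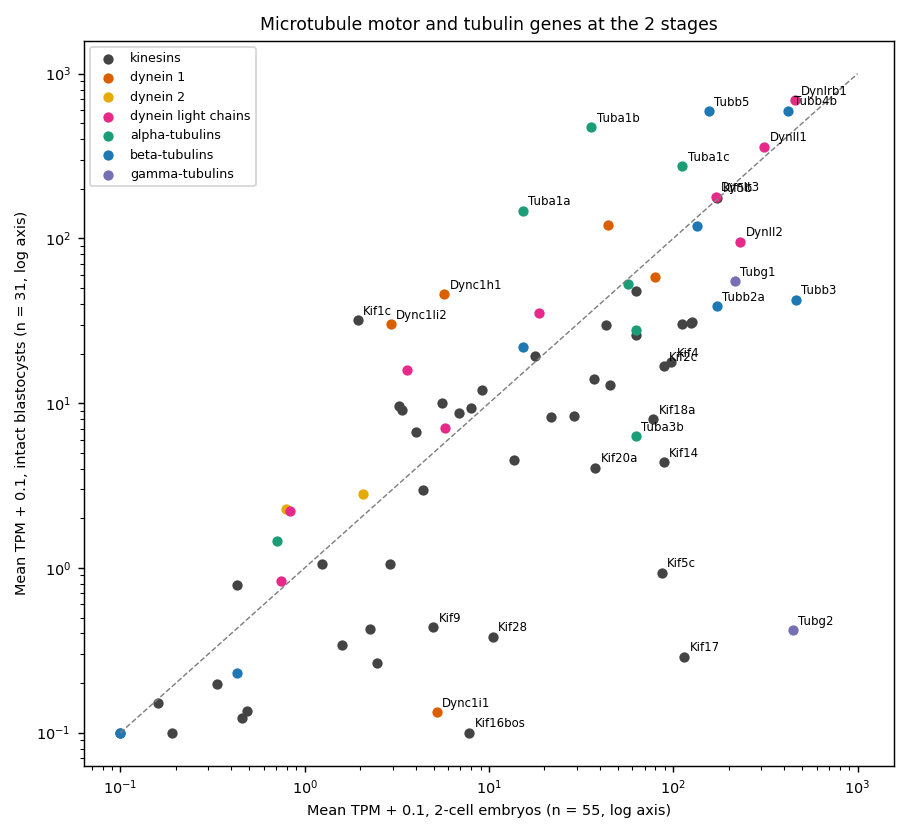
Mean TPM + 0.1 of each of the 77 members in 55 summed 2-cell embryos (x axis, log) and 31 intact blastocysts (y axis, log), coloured by family, with the line of equal level dashed. Tubg2, Kif17 and Kif5c lie far below the line, at means of 446, 114.8 and 86.2 TPM in 2-cell embryos and under 1 in intact blastocysts, while Tuba1b, Tuba1a and Dync1h1 lie above it.

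Reads of near-identical copies limit what can be said of single tubulins and single Dynlt1 light chains. Of the 100-base windows of each transcript, 65.9% of Tuba1a, 65.2% of Tuba1b and 46% of Tuba1c occur in another gene of the annotation, largely in each other. The share was 36.9% for Tubb2a and 26.01% for Tubb2b, 54.7% to 81.99% for Dynlt1a, Dynlt1b, Dynlt1c and Dynlt1f, and 32.4% for Tuba4a, which overlaps Stk16. For Kif20a it was 21.4%, shared with Cdc23. In all, 22 members shared at least 10% of their windows. Tubg1 and Tubg2 shared 3.23% and 4.23%. Kif16bos and Kif16b shared none and do not overlap in the annotation.

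The stage comparison asked which motor and tubulin genes differ between the 2-cell embryo and the blastocyst. In 2-cell embryos both gamma-tubulins, 19 of the 33 kinesin symbols tested (Kif1bp among the 19) and the neuronal-type tubulin Tubb3 were higher. A further 3 kinesin symbols were lower, and over all genes tested 45.9% were higher and 31.2% lower. Dynein 1 heavy and light intermediate chains and the tubulins Tuba1a, Tuba1b, Tuba1c and Tubb5 were higher in intact blastocysts. By edgeR's quasi-likelihood test with Benjamini-Hochberg adjustment over all genes, 27 of the 59 members tested were higher in 2-cell embryos and 14 lower. The 41 called are 69.5% of the members tested, below the background of 77.1% of all 12645 genes tested (45.9% higher and 31.2% lower). At least 2-fold differences were found in 37 members, against a background of 67.6% of all genes. The median difference was 0.57 on the log2 scale over the members and 0.41 over all genes. The p-values measure the spread between these embryos alone, and because all blastocysts were on plate 2 the plate difference was estimated from 2-cell embryos.

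Tubg2 and Tubg1 encode the mouse gamma-tubulins, which nucleate microtubules. Tubg2 was at 109.4, 229.5 and 366 CPM (lowest, median and highest) in 2-cell embryos and at 0, 0 and 1.71 CPM in intact blastocysts. It had 35067 counts over the 2-cell embryos and 4 counts over the intact blastocysts, 4 of 31 of which held any. The pooled ratio was 1316 with an exact 95% interval of 514 to 4831, which covers counting error only, and the adjusted p was 1.29e-65. Tubg1 was at 47.95, 153.5 and 220.3 CPM against 14.8, 41.2 and 91.4 CPM, a log2 difference of 2.33 ± 0.16 (SE), with overlapping ranges. The summed gamma-tubulin level per length was accordingly 667 TPM (median) in 2-cell embryos and 51 in intact blastocysts, and Tubg2 made up 67.2% and 0% of it.

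Kif17, a kinesin-2 motor known from dendrites and cilia, was at 93.4, 156 and 278 CPM in 2-cell embryos and at 0, 0 and 7.01 CPM in intact blastocysts, with 23210 and 6 counts in all (ratio 581, interval 267 to 1583). Kif5c, the conventional kinesin heavy chain enriched in neurons, was at 80.6, 183 and 298.5 CPM against 0, 0 and 22.8 CPM (ratio 115.2, interval 82.8 to 166). Its relative Kif5b was at 254, 412 and 659 CPM against 160.3, 507 and 714 CPM, and was not called. Kif5a, the third gene of this subfamily, had a median of 0 CPM at both stages. Dync1i1, a dynein intermediate chain, had 803 counts over the 2-cell embryos and 1 over the intact blastocysts (ratio 120.6, interval 21.6 to 4768). Its ratio rests on that 1 count. It was at 0 CPM in 24 of 55 2-cell embryos (median 1.33 CPM) and had 45 counts over the twin pairs. Kif16bos had 189 counts against 0, at least 9.46-fold higher in 2-cell embryos when 3 counts over the group are taken as the floor.

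Of the 15 kinesins known from the mitotic spindle and cytokinesis, a list drawn up after the values had been seen, 14 were tested. Of these, 9 were higher in 2-cell embryos, beside 45.9% of all genes tested. Kif14, a kinesin of the midbody, was at 155, 268 and 458 CPM against 0, 11.6 and 69.7 CPM (log2 difference 4.39 ± 0.24). Kif18a, which restrains chromosome movement at plus ends, was at 123, 228 and 354.5 CPM against 0, 26.3 and 90.9 CPM (3.16 ± 0.21). Both ranges were apart from those of the intact blastocysts. Kif23 (log2 difference 2.13 ± 0.12) and Kif20b (1.94 ± 0.19), motors of the central spindle, and Kif2a (2.19 ± 0.12) did not overlap either. Kif20a (3.28 ± 0.38), Kif2c (2.36 ± 0.30), Kif4 (2.23 ± 0.23) and Kif22 (1.26 ± 0.27) were higher with overlapping ranges. Kif15, a spindle motor acting beside Kif11, was the member of the list that was lower, by 1.16 ± 0.50. It was at 0, 9.83 and 28.9 CPM against 0, 32.5 and 113.5 CPM. Its edgeR adjusted p was 0.0308, and it was not called in plate 2 alone. Kif11, the tetrameric motor that keeps spindle poles apart, was at 32.9, 95.2 and 191 CPM against 3.69, 70.5 and 274 CPM and was not called (adjusted p = 0.0565). Among the other kinesin symbols, Kif1bp included, 10 of 19 tested were higher and 2 lower, beside 45.9% and 31.2% of all genes. The lower ones were Kif1c (2.07 against 65.4 CPM, medians) and Kif13b (15.7 against 34).

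The heavy and light intermediate chains of dynein 1 went the opposite way, and its intermediate chains did not. Dync1h1, the only heavy chain of dynein 1, was at 0.566, 24.2 and 82.02 CPM in 2-cell embryos and at 97.2, 220.2 and 719 CPM in intact blastocysts, with no overlap and a log2 difference of -2.90 ± 0.39. The light intermediate chains followed, with Dync1li2 at a median of 3.19 against 58.1 CPM (-3.64 ± 0.74) and Dync1li1 at 51.3 against 169 CPM (-1.57 ± 0.28). Of the intermediate chains, Dync1i1 was below the filter on low counts, with 803 counts against the 1 given above, and Dync1i2 was higher in 2-cell embryos, at medians of 198 and 168.5 CPM with highest values of 318.5 and 312 CPM (0.57 ± 0.13). Among the light chains, Dynll2 was higher in 2-cell embryos (1.34 ± 0.16) and Dynlt1f, Dynlrb1 and Dynll1 were lower (-1.69 ± 0.50, -0.57 ± 0.20 and -0.34 ± 0.12). Dync2h1, the heavy chain of the ciliary dynein 2, was at medians of 7.19 and 12.6 CPM and was not called.

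The make-up of the tubulin families differed between the stages. Summed beta-tubulin was 1354 TPM (median) in 2-cell embryos, 1427 in intact blastocysts and 1271 in twin pairs. Tubb3 made up 23.4%, 34.4% and 46.4% of it (lowest, median and highest) in 2-cell embryos, and 0%, 2.26% and 7.98% in intact blastocysts, without overlap. Tubb5 moved in reverse, from 2.97%, 11.5% and 18.1% to 30.4%, 41.5% and 54.1%, also without overlap. Tubb4b held 30.97% and 42.5% (medians) with overlapping ranges, and Tubb2a held 13.1% and 1.85% (medians), with a log2 difference in CPM of 2.33 ± 0.27. Tubb1, the platelet tubulin, had no count at any stage.

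Summed alpha-tubulin was 323 TPM (median) in 2-cell embryos, 886 in intact blastocysts and 837 in twin pairs. Tuba1c was the leading isotype of 2-cell embryos at 18.7%, 32.6% and 47.96%, followed by Tuba3b (median 18.1%), Tuba3a (17.1%) and Tuba4a (16.1%). These 3 did not differ beyond their spread, with SDs of 7.69 to 10.0 percentage points. In intact blastocysts Tuba1b held 27.4%, 53.8% and 62.9%, above its 0.617%, 9.45% and 26.3% in 2-cell embryos with no overlap. In CPM, Tuba1b was at 0.848, 18.8 and 55.5 in 2-cell embryos and at 192, 303 and 403 in intact blastocysts (log2 difference -3.77 ± 0.30), and Tuba1a at medians of 6.79 and 79.1 (-3.10 ± 0.42). Tuba3b, a testis-type isotype, had a median of 29.5 CPM in 2-cell embryos and 0 in intact blastocysts, where 24 of 31 had no count. Because Tuba1a, Tuba1b and Tuba1c share much of their sequence, their split is less certain than their sum.

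**Figure D2:**
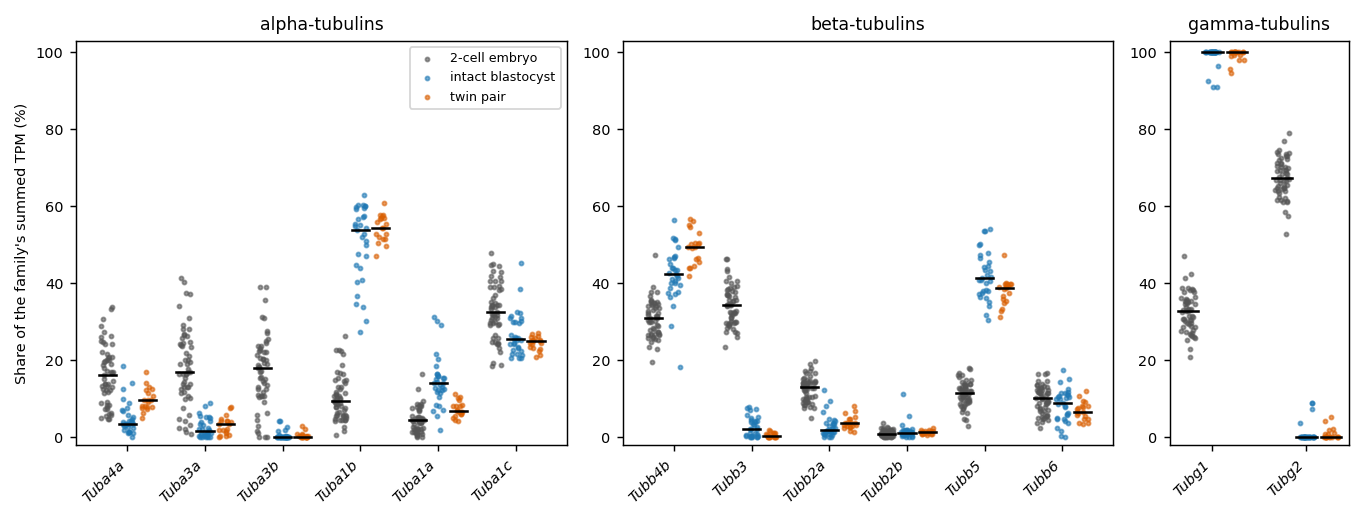
Share of each isotype in the summed TPM of its tubulin family (y axis, percent), 1 point per 2-cell embryo (n = 55), intact blastocyst (n = 31) or twin pair (n = 19), with medians as black bars. Tubb3 (median 34.4%) and Tubg2 (67.2%) are the leading beta- and gamma-tubulin in 2-cell embryos, whereas Tuba1b (53.8%), Tubb4b (42.5%), Tubb5 (41.5%) and Tubg1 (100%) lead in intact blastocysts.

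In CPM, 12 members did not overlap between 2-cell embryos and intact blastocysts: Kif14, Kif5c, Kif18a, Kif17, Kif23, Kif2a, Kif20b, Tubb3, Tubg2, Dync1h1, Tuba1b and Tubb5. They came from 65 members with a mean of 1 CPM or more, and 12.1% of all such genes did not overlap. With 2-cell embryos thinned to the median total of the intact blastocysts, an alternative chosen after seeing the data, 37 of the 41 called members were still tested and all 37 were called in the same direction. In that fit 8201 of 10242 genes were called. With twin pairs in place of intact blastocysts, 38 of the 41 were called in the same direction, beside 10942 of 13825 genes called. Dynll2 and Kifc3 took the opposite sign. Plate 2 alone held 13 of the 2-cell embryos and all blastocysts. There 38 of the 41 were still tested and 37 were called in the same direction, beside 7778 of 10292 genes called.

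The comparison by ICSI site asked whether the place of sperm deposition is reflected in the transcripts of the whole 2-cell embryo. Between contralateral and equatorial ICSI, Kif18a, Dynlrb1 and Dynlt3 were higher and Kif22, Kif5b, Tuba1c, Tubb5 and Tuba1b lower after contralateral ICSI. These 8 are 12.9% of the 62 members tested, near the background of 13.2% of the 13141 genes tested (7.12% higher and 6.06% lower). The median difference was -0.17 on the log2 scale over the members, 43 of which were negative, and 0.00 over all genes. Between ipsilateral and equatorial ICSI, Kif18a, Dynlt3 and Dynlrb1 were higher and Kif5c lower, which is 6.45% of the members tested against a background of 6.65% (3.43% higher and 3.22% lower). The 13 equatorial embryos are the controls of both, which the 3 members called in both comparisons thus share. At an unadjusted p under 0.05 there were 19 and 11 of the 62 members tested, beside 3421 and 2576 of 13141 genes.

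Kif18a was at 137, 267 and 351 CPM after contralateral, 139, 244 and 354.5 after ipsilateral, and 123, 167 and 279 after equatorial ICSI. The ranges overlapped, and 20 of 21 contralateral and 18 of 21 ipsilateral embryos lay above the equatorial median. The log2 differences from the equatorial embryos were 0.54 ± 0.11 (edgeR adjusted p = 0.00067) and 0.53 ± 0.12 (adjusted p = 0.00276). Dynlrb1, a light chain of the roadblock type that binds the dynein intermediate chains, was at 83.03, 147 and 251 CPM, 91.2, 146 and 223 CPM, and 59.5, 99.97 and 173 CPM in the same order. It was above the equatorial median in 19 of 21 embryos of each polar group, with log2 differences of 0.56 ± 0.14 and 0.50 ± 0.14. Dynlt3, a light chain of the Tctex type, was at medians of 122.5, 149 and 106.4 CPM, with 14 of 21 and 19 of 21 embryos above the equatorial median (0.46 ± 0.15 and 0.56 ± 0.15).

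Among the lower members, Kif22, which moves chromosome arms, was at 34.3, 63.8 and 166 CPM after contralateral, 10.48, 83.4 and 172 after ipsilateral, and 89.5, 138 and 197.5 after equatorial ICSI. The contralateral difference was -0.89 ± 0.21 (edgeR adjusted p = 0.00255), with 15 of 21 embryos below every equatorial embryo, and the ipsilateral one -0.61 ± 0.22 (adjusted p = 0.0738). Kif5b was at 254, 368 and 545 CPM, 292, 402 and 589.6 CPM, and 344, 467 and 659 CPM, with differences of -0.33 ± 0.09 and -0.26 ± 0.09, and the latter did not pass (adjusted p = 0.0673). Kif5c differed after ipsilateral ICSI by -0.51 ± 0.11 (edgeR adjusted p = 0.003) and after contralateral ICSI by -0.30 ± 0.11 (adjusted p = 0.0584). Its CPM were 80.6, 186 and 258, then 110, 159 and 225, then 159, 221 and 298.5 in the same order. Only 1 of 21 ipsilateral embryos lay above the equatorial median of Kif5c.

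Tuba1b was at 0.848, 14.2 and 30.8 CPM after contralateral ICSI against 13.3, 31.2 and 55.5 after equatorial ICSI, and no contralateral embryo exceeded the equatorial median (log2 difference -1.06 ± 0.33, adjusted p = 0.0232). Tuba1c was at 40.4, 61.97 and 120.6 CPM against 37.9, 99.97 and 166 (-0.60 ± 0.16), and Tubb5 at 47.8, 123 and 310.3 CPM against 139, 202 and 281 (-0.58 ± 0.17). All 6 beta-tubulins tested had negative differences in both comparisons, which share the equatorial embryos. The share of negative signs over all genes was not counted. Some of the differences were within their SE, such as Tubb6 after ipsilateral ICSI (-0.06 ± 0.22) and Tubb2b after contralateral ICSI (-0.17 ± 0.48). Of the 6, 1 passed in the contralateral comparison and 0 in the ipsilateral one. In the latter 2 were at an unadjusted p under 0.05, beside 2576 of 13141 genes. DESeq2 called 13 and 9 members in these comparisons, beside 21.4% of the 10593 and 14.8% of the 8810 genes to which it gave an adjusted p.

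**Figure D3:**
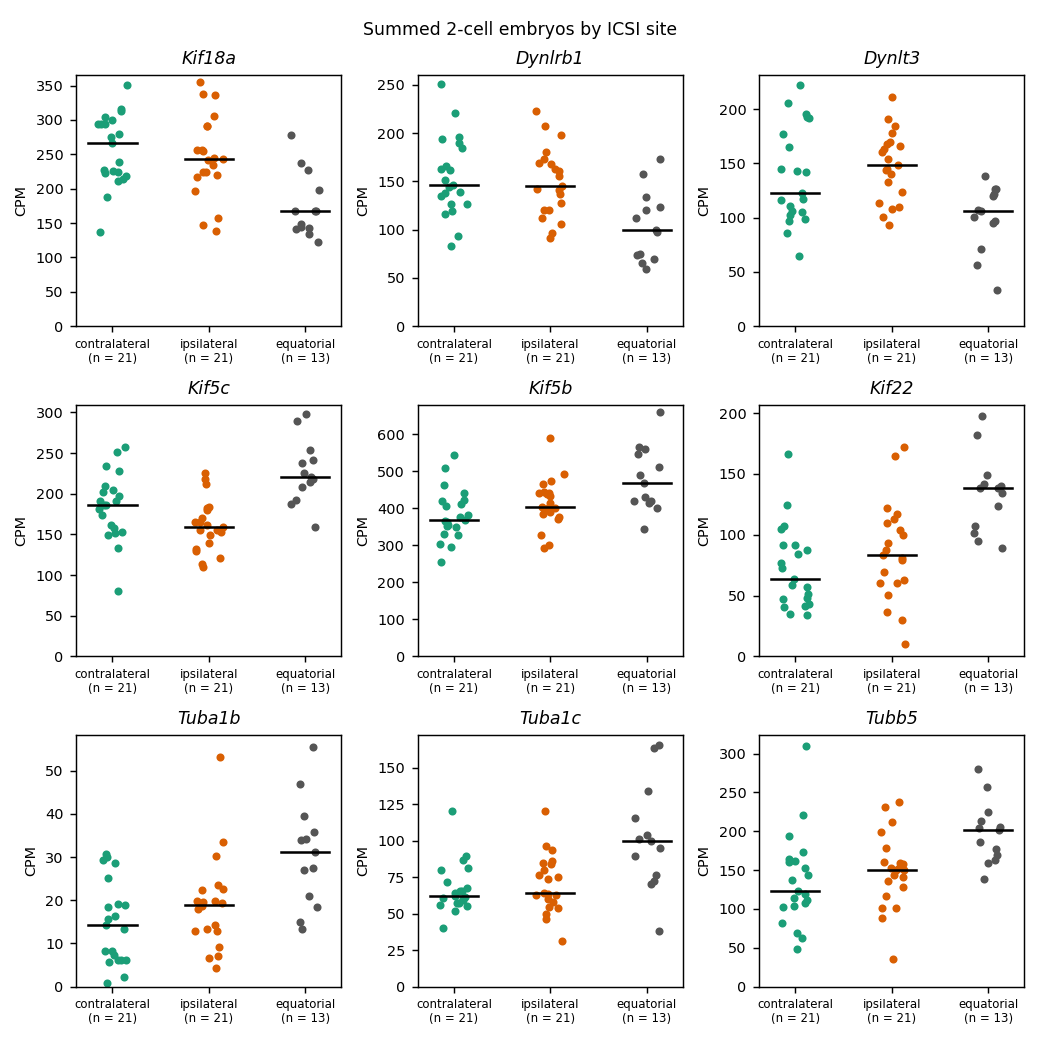
CPM (y axis, from 0) of the 9 members called in either comparison with equatorial ICSI, 1 point per summed 2-cell embryo, with medians as black bars, after contralateral (n = 21), ipsilateral (n = 21) and equatorial (n = 13) ICSI. In each of the 9 panels the ranges of the 3 groups overlap, with Kif18a medians of 267, 244 and 167 CPM and Kif22 medians of 63.8, 83.4 and 138 CPM.

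Equatorial embryos had lower total counts (median 2179479) than contralateral (2675357) and ipsilateral embryos (3050508), and fewer detected genes (13417 against 14152 and 14233). When the log2 total and the number of detected genes of the embryo were added as covariates, 5 members were called for contralateral ICSI (without Tuba1b, Tuba1c and Dynlt3), beside 8.12% of all genes, and 0 for ipsilateral ICSI, beside 0.388%. In plate 1 alone, 14 and 6 members were called, beside 16.9% and 8.61% of all genes, and all of the 8 and the 4 named above were among them. Within plate 1 the Kif18a medians were 277, 256 and 167 CPM, and within plate 2, which held 3, 8 and 2 embryos, they were 215, 219.9 and 171. For Dynlrb1, the contralateral and equatorial medians were 157 and 97.4 CPM on plate 1 and 138 and 148 on plate 2. With blastomeres limited to a mitochondrial share of at most 2% of counts, Dynlt3 was called in neither comparison. Kif5b was then not called for contralateral ICSI. The rank-sum test on TPM did not call Dynlt3 for contralateral ICSI either.

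Contralateral and ipsilateral embryos were also compared with each other. By edgeR 0 of 62 members were called, beside 0.0% of all genes, and 0 by DESeq2. At an unadjusted p under 0.05 in edgeR there were 6 members, beside 555 of 13141 genes. They were led by Kif13b (log2 difference -1.15 ± 0.42, p = 0.00786) and Kif1b (-0.21 ± 0.08, p = 0.0137).

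Sister blastomeres were compared within embryos, as the absolute difference of log2(CPM + 1), since the letters a and b carry no known orientation. Among the 57 members tested, the smallest mean differences belonged to Dynll1 (0.25), Kif5b (0.28), Tubb3 (0.30) and Dync1i2 (0.30). Dynll1 is the light chain shared by dynein and myosin. The largest among members with a mean of at least 10 CPM belonged to Kif28 (2.36), Kif21b (2.21), Kif15 (2.05), Kif13b (2.00), Kif13a (1.96), Kif3a (1.94), Tuba3b (1.77) and Tubb2b (1.74). The size of the difference fell with the level. The median over members was 1.74 from 10 to under 50 CPM (15 members), 0.66 from 50 to under 150 CPM (13) and 0.36 from 150 CPM (17), and over all genes it was 1.64, 0.76 and 0.36 in these ranges. Over all members with at least 10 CPM it was 0.64 (n = 45), against 1.04 over 9244 genes. Of these, 17 members and 1768 genes were at 150 CPM or more, so the pooled values compare unlike mixes of level.

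No pair of sisters differed by over 2-fold in Tubb3 or Kif2a, 1 of 55 did in Dynll1, Kif5b and Kif17, and 33 of 55 did in Dync1h1, whose mean was 26.1 CPM. A limma F-test over the 3 ICSI sites called 0 of 57 members for the size of the difference between sisters, beside 0.239% of all 11712 genes tested, which does not show equal differences at the 3 sites. At an unadjusted p under 0.05 in that test there were 2, Kif4 (p = 0.00797) and Dynll1 (p = 0.023), beside 1233 of 11712 genes. Between the letters, edgeR called 0 of 50 members and 0.0% of all genes, and DESeq2 called 0 members. Before adjustment 3 members were under 0.05 in edgeR, beside 464 of 9810 genes.

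**Figure D4:**
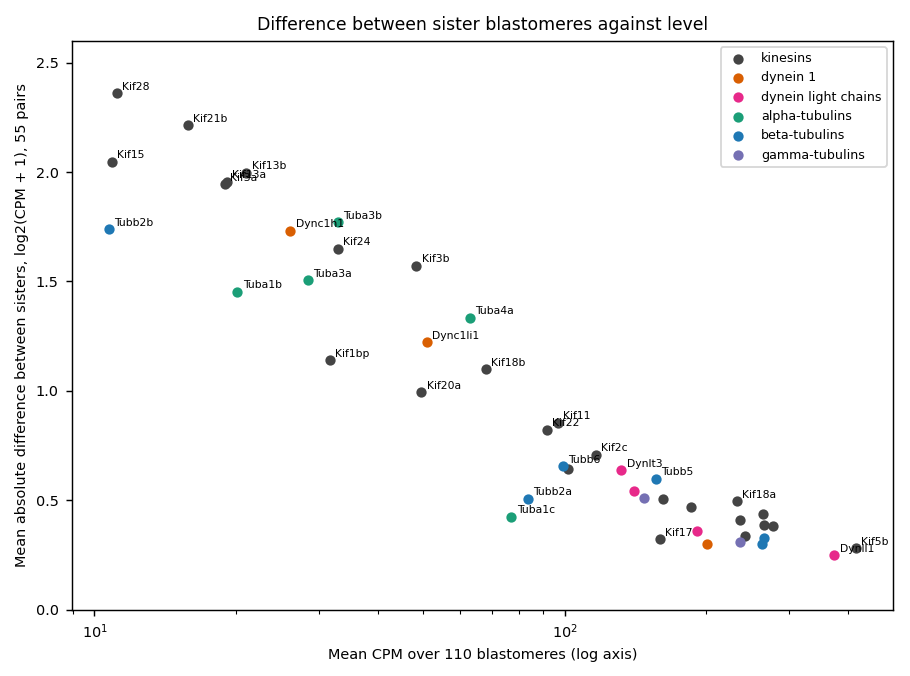
Mean absolute difference between sister blastomeres in log2(CPM + 1) over 55 pairs (y axis) against mean CPM over 110 blastomeres (x axis, log), 1 point for each of the 45 tested members with at least 10 CPM, coloured by family. The points fall from left to right, from Kif28 at 2.36 to Dynll1 at 0.25.

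Twin blastocysts, each grown from a single blastomere, were compared with intact ones, with the ICSI site as a covariate. In twin pairs, 9 of the 14 mitotic kinesins tested and the dynein light chains Dynll2, Dynlt1b and Dynlt1f were higher, and the dynein 1 chains Dync1h1, Dync1i2 and Dync1li1 and the tubulins Tubb3, Tuba1a, Tubb5, Tuba1c and Tubb6 lower. By edgeR's quasi-likelihood test 13 members were higher and 12 lower of 50 tested, and these 25 are 50% of the members beside a background of 42.3% of 9379 genes (20.4% higher and 21.9% lower). With the total count and the number of detected genes as covariates, 4 of the 25 were called in the same direction, namely Kif23, Dynll2, Tubb3 and Dync1li1. Tuba1c was called in the opposite direction in that fit (log2 difference 1.15). Without these covariates, none of the 14 mitotic kinesins was called lower. Of 12 other kinesin symbols, Kif1bp among them, 0 were higher and 3 lower. The mitotic list was drawn up after the values had been seen, so this split is a description and not a test. Of the mitotic kinesins not called, Kif20b differed by 0.12, Kif18a by 0.21 and Kif2c by 0.50 on the log2 scale. In samples of whole blastocysts, fewer cells of a type and less RNA per cell cannot be told apart. No member had ranges that did not overlap between twin and intact blastocysts, and 0.313% of all genes with a mean of 1 CPM or more had such ranges.

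Kif20a, a motor of the cleavage furrow, was at 14.9, 32.8 and 47.3 CPM in twin pairs and at 0, 3.43 and 32.3 CPM in intact blastocysts, a log2 difference of 2.50 ± 0.39, and 10 of 19 twin pairs lay above every intact blastocyst. Kif14 was at 21.8, 43.5 and 79.8 CPM against 0, 11.6 and 69.7 (1.42 ± 0.33), Kifc1, a minus-end motor that focuses spindle poles, at 22.8, 32.4 and 48.6 against 0, 9.98 and 60.3 (1.39 ± 0.31), and Kif4, the chromokinesin, at 53.6, 89.1 and 125.6 against 0, 32.3 and 98.8 (1.24 ± 0.25). Kif23, Kif22, Kif15, Kif11 and Kif2a were higher by 0.35 to 0.85 on the log2 scale. Dynll2 was at 184, 221 and 265 CPM against 16.6, 88.9 and 223 (1.24 ± 0.16), with 9 of 19 twin pairs above every intact blastocyst. Tubg1 (0.57 ± 0.17) was also higher, as were Dynlt1b (1.44 ± 0.35) and Dynlt1f (0.81 ± 0.28), which share most of their windows with other Dynlt1 genes.

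In the other direction, Tubb3 was at 0, 2.17 and 14.9 CPM in twin pairs against 0, 22.5 and 88.9 CPM (-2.63 ± 0.52), and Kif1c, a cargo motor, at 11.8, 22.3 and 50.5 against 13.9, 65.4 and 272 (-1.85 ± 0.26). Tuba1a was at 20.6, 37.2 and 62.2 CPM against 9.23, 79.1 and 321 (-1.23 ± 0.23). The 3 called dynein 1 chains were lower in twins, Dync1h1 by 0.85 ± 0.17, Dync1i2 by 0.83 ± 0.12 and Dync1li1 by 0.53 ± 0.15 on the log2 scale. For Dync1i2, 8 of 19 twin pairs lay below every intact blastocyst. Tubb5, Kif5b, Tuba1c, Dynlt3, Kif1b and Tubb6 were lower by 0.44 to 0.55 on the log2 scale. Tuba1b, the main alpha-tubulin, was at medians of 302.5 and 303 CPM and was not called (-0.15 ± 0.09).

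**Figure D5:**
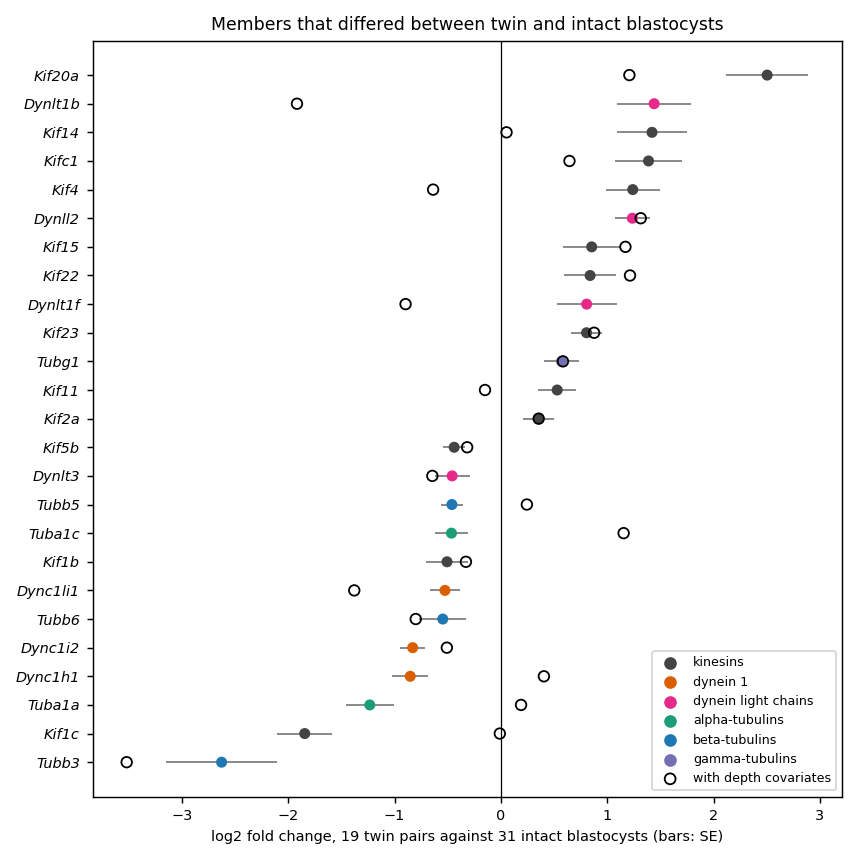
Log2 fold change of the 25 called members in 19 twin pairs against 31 intact blastocysts (x axis, filled points coloured by family, bars ± 1 SE) and the same with total count and detected genes as covariates (open points). Kif20a has the largest rise (2.50) and Tubb3 the largest fall (-2.63), and the open points of Dynlt1b, Dynlt1f, Kif4, Kif11, Tubb5, Tuba1c, Dync1h1 and Tuba1a lie across 0 from the filled ones.

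The depth of the libraries moved with this comparison, since the totals of twin pairs and intact blastocysts did not overlap. With the log2 total and the number of detected genes as covariates, 10 members were called, beside 19.4% of all genes. Among them were the 4 given above and, with the opposite sign, Tuba1c, and 5 were newly called. Depth and kind of blastocyst cannot be told apart in that fit. With twin pairs thinned to the median total of the intact blastocysts, an alternative chosen after seeing the data, all 25 were called in the same direction, as they were with 1 twin of each pair (letter a). With the other twin 21 were. Over all genes, 3719 of 8884 were called with the thinned pairs, 3505 of 9288 with letter a and 3820 of 9271 with letter b. Cell type markers also differed: the 5 epiblast markers summed to 248, 357 and 497 CPM in twin pairs and 28.1, 134 and 299 in intact blastocysts, and 4 of 5 were higher. The 6 trophectoderm markers summed to medians of 3105 and 3268 CPM, with Cdx2 higher (1.41) and Gata3 (-0.68), Elf5 (-1.32) and Tfap2c (-1.34) lower, and of the 5 primitive endoderm markers Gata6 was higher (0.58) and Sox7 lower (-1.59). The oocyte and 2-cell markers summed to 330.2, 553 and 683 CPM against 0, 46.8 and 402.5, carried by Dppa3, while Bmp15, Oosp1 and Zar1 had a median of 0 in both. Their part in the result was not tested.

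An interaction test called 0 of 50 members for a difference of the twin effect between ICSI sites, beside 0.0% of all genes, which does not show that the effect was alike at the sites. At an unadjusted p under 0.05 in that test there was 1, Tuba1a (p = 0.0212), beside 177 of 9379 genes. Its twin minus intact differences were -2.11 ± 0.39 after contralateral, -0.90 ± 0.37 after ipsilateral and -0.79 ± 0.36 after equatorial ICSI. Dynll2 differed by 1.29 ± 0.29, 1.33 ± 0.30 and 1.10 ± 0.28 at the 3 sites, and Kif20a by 3.24 ± 0.69, 2.57 ± 0.72 and 1.81 ± 0.60.

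A further 80 genes that work with these motors and polymers were followed as lists. Between the stages 38 of 77 tested were higher in 2-cell embryos and 20 lower, which is 49.4% and 26% of them beside 45.9% and 31.2% of all genes. The counts of the single lists stand beside the same background. The 12 dynactin genes, partners of dynein 1, had 1 higher and 9 lower, such as Dctn1 (medians of 7.48 and 101.5 CPM, log2 difference -3.26 ± 0.47), and the 6 tubulin folding cofactors 1 higher and 4 lower. Of 9 dynein regulators and adaptors, 6 were higher, among them the adaptor Hook1 (1.70 ± 0.16), and 1 lower. Of 22 microtubule-associated genes 17 were higher and 1 lower, with the spindle assembly factor Tpx2 at medians of 405 and 121.3 CPM (1.86 ± 0.15). The modifying enzymes had 7 higher and 2 lower of 10 tested, the gamma-tubulin ring and organizing centres 4 and 1 of 10, the kinesin cargo partners 1 and 2 of 6, and the delta- and epsilon-tubulins 1 and 0 of 2.

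Between contralateral and equatorial ICSI, 7 of 75 genes on these lists were higher and 4 lower, 9.33% and 5.33% of them beside 7.12% and 6.06% of all genes. The higher ones were the actin-capping dynactin subunits Capza1 (0.43 ± 0.13) and Capza2 (0.59 ± 0.13), Dctn6, the gamma-tubulin partners Nedd1 and Mzt1, and the plus-end proteins Ckap5 (0.47 ± 0.11) and Mapre1. The lower ones were Numa1, which anchors dynein at spindle poles (-0.63 ± 0.20), Camsap1, Plk1 and Map4. Between ipsilateral and equatorial ICSI 3 were higher (Capza2, Ckap5 and Cep192) and 1 lower (Camsap1), 4% and 1.33% of the lists beside 3.43% and 3.22% of all genes, and between contralateral and ipsilateral ICSI 0 were called. In twin pairs 18 of 68 were higher and 9 lower than in intact blastocysts, 26.5% and 13.2% beside 20.4% and 21.9% of all genes. They had the mitotic kinase Aurka (1.19 ± 0.16), Plk1 (0.87 ± 0.20) and Tpx2 (0.58 ± 0.15) among the higher and Hook1 (-1.47 ± 0.23) and Pafah1b1 (-0.45 ± 0.09) among the lower. All these list counts are from the fits without depth covariates. With those covariates 8.12% of all genes were called for contralateral ICSI, 0.388% for ipsilateral ICSI and 19.4% for twins. For ipsilateral ICSI 51 genes were then higher and 0 lower, so that Camsap1 was not called lower.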

How the data were processed

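Full-length cDNA of single blastomeres and blastocysts (SMART-Seq, Nextera XT) was read on a NovaSeq. Reads were trimmed by the authors (Trimmomatic 039 and FastQC 0.12.1 in the submitters' notes), reduced to first reads of 100 bases, and aligned with STAR 2.7.10b, ignoring strand, to GRCm38 (GENCODE M23 genes). The authors deposited whole-number counts per gene with no normalization, with reads of equal start and end counted once. There are no molecular identifiers, so intervals cover counting error only.

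Blastomeres with at least 9500 detected genes and a sister that passed (110 of 125) and blastocysts with at least 4000 were used. No limit on the mitochondrial share of counts was set for this main set. The 2-cell embryos had a median total count of 2683481, the twin pairs 2200256 and the intact blastocysts 705837. CPM and TPM were computed here, with union exon lengths from GENCODE M21. Sister and twin counts were summed and tested with edgeR 4.0.16 (TMM, filterByExpr, quasi-likelihood, R 4.3.3), with plate, ICSI site or embryo as covariates and Benjamini-Hochberg adjustment over all genes (threshold 0.05). edgeR reports no SE, so each SE given was derived as the absolute log2 difference over the square root of the test's F statistic. Differences between sisters were tested with limma 3.58.1 at a pseudocount of 1. Fits were tested on simulated data. Alternatives were DESeq2 1.42.0, RLE factors, other filters, plates and sample sets, depth covariates, thinning and a rank-sum permutation test on TPM. Promoter windows are RefSeq's. Replicates were separate embryos per the labels.

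The text names the called members with the smallest adjusted p, the highest members of each family, the extremes between sisters, and members known from spindles and transport. The members and lists were chosen with earlier results of these data known.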

Additional observations from a re-analysis of the deposited data

How the results depend on the processing

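The number of members called moved by over 1.5 times under these settings. Between contralateral and equatorial ICSI it was 8, and 13 with DESeq2, 5 with depth covariates, 14 in plate 1 alone and 15 with the rank-sum test on TPM. Between ipsilateral and equatorial ICSI it was 4, and 9 with DESeq2, 7 with all pairs, 0 with depth covariates, 7 without a plate term and 10 with the rank-sum test. The number over all genes moved too. The rank-sum test called 2172 of 13141 genes in the contralateral comparison and 1534 in the ipsilateral one. For ipsilateral ICSI 1117 of 13153 genes were called with all pairs and 1004 of 13141 without a plate term. Between contralateral and ipsilateral ICSI the number of members called was 0, and 2 without the low-count filter. Between twin and intact blastocysts it was 25, and 10 with depth covariates, where the log2 difference reversed for Dynlrb1 (-0.77), Dync1h1 (0.40), Tuba1b (0.44), Tuba1a (0.19), Tuba1c (1.15), Dynlt1b (-1.92), Dynlt1f (-0.90), Tubb5 (0.24), Kif11 (-0.15) and Kif4 (-0.64). The causes were not tested. With twin pairs in place of intact blastocysts the stage difference reversed for Kifc3 (-1.17) and Dynll2 (-0.15). Over all genes, the counts ranged from 1067 (depth covariates) to 3930 (no low-count filter) beside 1733 for contralateral against equatorial ICSI, from 51 to 2603 beside 874 for ipsilateral ICSI, and from 1815 to 6385 beside 3967 for twins. Without the low-count filter 1577 genes were called between contralateral and ipsilateral ICSI beside 0, and 15441 between the stages beside 9744. Members with a mean under 10 CPM rest on few reads per blastomere, which limits what can be seen between sisters.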
